A study of Mus musculus with 5 samples.

Results

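Engaged RNA polymerase was measured over 9 mouse genes of the interferon pathway: Ddx58, Ifih1, Tlr3, Irf3, Irf7, Ifnar1, Stat2, Irf9 and Irf1. They were taken by symbol from a fixed list, drawn up with earlier results of these data known, and all 9 were found among the 19893 gene models of the mm9 annotation that could be counted. Irf1 carried the clearest difference between the cell types, with a gene body 3.59-fold denser in embryonic stem cells (95% counting interval 2.83 to 4.60). Irf9, Ddx58 and Stat2 were denser in fibroblasts by 1.44-fold to 1.87-fold, while Ifnar1 and Irf3 could not be told apart between the cell types under scaling by total reads. Tlr3, Ifih1 and Irf7 lay close to the limit of what these libraries can count.

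The data came from global run-on sequencing, in which nuclei are isolated and polymerases already on the DNA add brominated bases to the RNA they are making. RNA carrying the label is captured with an antibody and read, so each read gives the place and strand of a transcribing polymerase and not the amount of stable RNA. The stem cells were mouse embryonic stem cells of the established line V6.5 (MESC, a C57Bl/6(f) x 129/Sv(m) hybrid, passages 12 to 14), grown on irradiated feeder cells with the cytokine LIF. Mouse embryonic fibroblasts (MEF, the same cross, from male E13.5 embryos, passage 2) had been grown in similar medium with less serum and no LIF. Neither cell type carried a transgene or received interferon in the labels. The 3 MESC samples and the 2 MEF samples are each pooled in 1 deposited read set, so no value has a spread between replicates. Every interval is an exact 95% interval that covers counting error only, and no p-value was computed.

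Outside the mitochondrial genome, 8571395 reads were available for MESC and 6571116 for MEF. Pluripotency markers held 4294 reads in MESC and 15 in MEF, and fibroblast markers 93.8 against 3589 RPM, the reads scaled to library size. The labels therefore fit the marker genes, with fibroblast marker reads present at a low level in the MESC library. Those cells were grown on feeders, and any part of feeder cells in these reads was not tested. Macrophage and blood markers summed to 44.2 RPM in MESC and 123 in MEF, with 4 of the 16 markers at 0 in MESC and 0 of 16 in MEF. Csf1r, a macrophage receptor, had 1 body read in MESC and 82 in MEF. The markers were not uniform. Over the whole gene Cd14 held 21 reads in MESC and 15 in MEF, Aif1 8 and 4, and Fcer1g 123 and 132. Any part of macrophages or blood cells in the differences below was not tested. In bulk libraries, fewer cells of a type and less RNA per cell cannot be told apart.

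Interferons are secreted proteins by which a cell that senses virus warns its neighbours. RIG-I (Ddx58), MDA5 (Ifih1) and TLR3 bind foreign RNA, and their signals activate the transcription factors IRF3 and IRF7, which switch on interferon genes. Secreted type I interferon binds the receptor of which IFNAR1 is a subunit, and STAT2 and IRF9 then act within the factor ISGF3, which binds the interferon-stimulated response element (ISRE). IRF1 is itself induced by interferon gamma, whose signal acts at the gamma-activated site (GAS). Pluripotent stem cells are known for a weak interferon response compared with differentiated cells.

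The sequences before the starts were searched for these elements, and only some of the 9 genes held a match. Tlr3, Irf3, Stat2 and Irf9 held neither. The search covered 2 motifs on both strands in the 250 bases before each annotated start. The ISRE core was GAAA followed by any 2 bases and a further GAAA, and the GAS core was TTCNNNGAA, which reads the same on both strands. Before the start of the longest transcript, 1334 of 19893 genes held the GAS core (6.71%), and 2 of the 9 genes did, Irf1 and Ifnar1. With every annotated start used, 2655 genes (13.3%) held it, and among the 9 again only Irf1 and Ifnar1. The 150 bases before the first annotated start of each, from the mm9 genome on the plus strand, at chr11:53583366-53583515 for Irf1 and chr16:91485333-91485482 for Ifnar1, have the GAS core in capitals.
Irf1: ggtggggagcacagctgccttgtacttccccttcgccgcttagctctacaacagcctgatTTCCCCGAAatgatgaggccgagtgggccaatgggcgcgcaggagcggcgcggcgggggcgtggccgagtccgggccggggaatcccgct
Ifnar1: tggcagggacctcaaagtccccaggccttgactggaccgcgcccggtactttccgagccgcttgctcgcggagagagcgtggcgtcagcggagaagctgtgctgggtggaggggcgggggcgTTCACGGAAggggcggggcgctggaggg
The GAS core of Irf1 began 127 bp before the start of its longest transcript, and that of Ifnar1 28 bp before. The ISRE core was found before the longest transcript's start in 649 genes (3.26%) and in 0 of the 9. When every annotated start was used, 1340 genes (6.74%) held it, among them Ddx58, Ifih1 and Irf7, and no gene of the 9 held both cores. The nearest matches in these 3 lay before an alternative start and after the start of the longest transcript, by 2 bp in Ddx58, 32 bp in Ifih1 and 312 bp in Irf7. All 3 genes are on the minus strand, and the 30 bases around each match are given in the direction of the gene with the core in capitals, from chr4:40186837-40186866, chr2:62484261-62484290 and chr7:148451989-148452018.
Ddx58: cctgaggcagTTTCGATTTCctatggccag
Ifih1: gaagagaatcGAAACAGAAAccgatctgtg
Irf7: actgtttaggTTTCATTTTCctgagatgca
A match describes the letters and does not show that a factor was bound.

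Gene bodies were counted from 1000 bp after the start to the annotated end, on the sense strand. Of the 9 genes, 6 had at least 50 body reads in 1 library, the minimum for a comparison. Of these 6, 0 were 4-fold higher in MESC and 0 in MEF, against 8.0% and 5.5% of the 9488 genes that passed the same minimum. Ratios of all these genes were centred at a log2 of 0.30 toward MESC under scaling by total reads, and 5 of the 6 lay below that median, Irf1 being the exception. The interval excluded equal density toward MEF in 3 of 6 (25.2% of all genes) and toward MESC in 1 of 6 (48.5%). With the libraries scaled so that the all-gene median was equal, the log2 ratio was 1.54 for Irf1 and ran from -1.21 for Irf9 to -0.37 for Ifnar1 in the others. The intervals of Ifnar1 and Irf3 then also lay below equal density, since their upper limits on the log2 scale, 0.23 and 0.29, are under the all-gene median. The other 3 genes, Ifih1, Tlr3 and Irf7, missed the minimum in both libraries and entered no count of calls, and their ratios below rest on few reads.

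**Figure D1:**
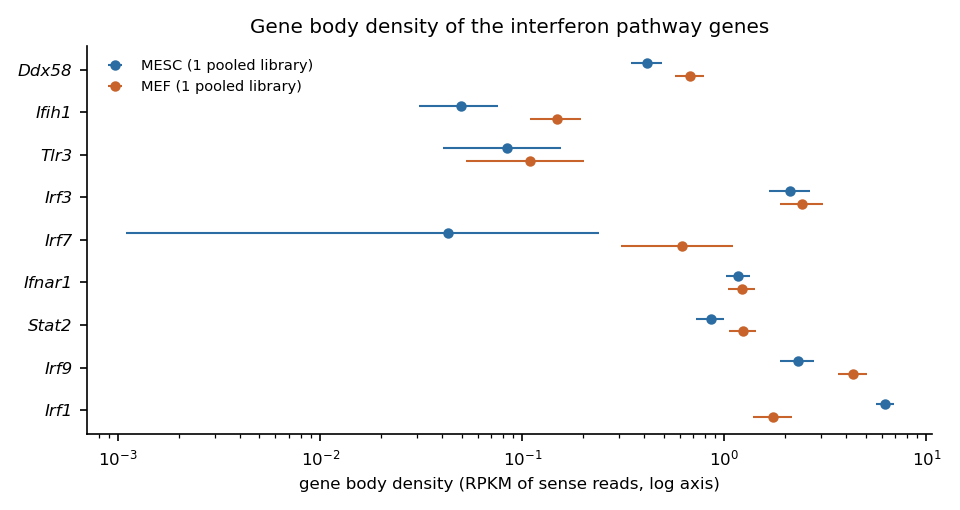
Gene body density of the 9 genes in RPKM of sense reads, on a log axis, in the pooled MESC and MEF libraries. Points are densities and bars are 95% counting intervals. Irf1 is the densest gene in MESC at 6.26 and Irf9 in MEF at 4.32. The Irf9 body window includes the reads near its annotated start 1006 bp downstream.

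Ddx58, which encodes the RNA sensor RIG-I, lies on chromosome 4 from 40150855 to 40186858 on the minus strand. Its body held 124 reads in MESC and 155 in MEF, or 0.413 and 0.674 RPKM, the reads per kb of body scaled to library size. The density was 1.63-fold higher in MEF (1.28 to 2.08). The difference was not even along the gene. In the first of 4 equal parts of the body 15 MESC reads stood against 41 MEF reads, a 3.57-fold higher density in MEF (1.93 to 6.93). In the last part the counts were 30 and 25, and the interval of the ratio, 0.613 to 1.91, included equal density. Near the start the reads were too few to compare, at 5 in each library. On the opposite strand the body held 68 and 70 reads. Aco1, the nearest measured gene on the lower side, is transcribed toward Ddx58, ends 4813 bp from it and was 1.47-fold denser in MEF, while Topors on the other side was 1.48-fold denser in MESC.

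Ifih1 encodes MDA5, the sensor of long double-stranded RNA, on chromosome 2 from 62433850 to 62484312 (minus strand). Only 21 MESC and 48 MEF reads fell in its body of 49463 bp, which left it just short of the minimum of 50. The density was 0.0495 RPKM in MESC and 0.148 in MEF, 2.98-fold higher in MEF (1.75 to 5.24). Both levels were above the intergenic background, by 2.27 times in MESC and 8.82 times in MEF. Its neighbours differed in opposite directions: Fap, a fibroblast protease, had 2 and 84 body reads, and Gca had 77 and 9. Fap was 54.8-fold denser in MEF, the same direction as Ifih1, and Gca 6.56-fold denser in MESC.

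Tlr3, the endosomal receptor for double-stranded RNA, lies on chromosome 8 from 46481019 to 46495893 (minus strand). It had 10 body reads in each library, at 0.0841 RPKM in MESC and 0.110 in MEF. The ratio of MESC to MEF was 0.767 (0.286 to 2.05), so a 2-fold difference either way was not detectable at this depth. The promoter window, from 50 bp before to 300 bp after the start, held 9 reads in each library. That window is 350 bp of a gene of 14875 bp. The pausing index, the density of the promoter window over that of the body, came to 35.7 in both libraries (12.8 to 97.7). Its counts are below the promoter minimum of 20 reads. With the window ended 150 bp after the start, too few reads remained for an index, so 35.7 does not show a peak at the start. Its measured neighbours differed, with 43 and 97 body reads in Fam149a and 53 and 4 in Pdlim3.

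Irf3 encodes the factor that is present before infection and is activated by phosphorylation, on chromosome 7 from 52253018 to 52258218 (plus strand). Its body of 4201 bp held 76 MESC and 67 MEF reads, a density of 2.11 and 2.43 RPKM. The ratio was 0.870 (0.618 to 1.23), and the groups could not be told apart. Upstream of its start, 46 and 43 antisense reads stood against 13 and 12 sense promoter reads. Those antisense reads cannot be assigned to Irf3 alone, because Bcl2l12 begins within 2000 bp on the other strand and overlaps it. Bcl2l12 itself had 174 and 115 body reads, a ratio of 1.16, and Scaf1 on the other side had a ratio of 0.770.

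Irf7, the factor that amplifies interferon production and is itself induced by interferon, lies on chromosome 7 from 148448605 to 148452320 (minus strand). Its body held 1 read in MESC and 11 in MEF. From start to end, a span chosen after its reads were seen, the counts were 4 and 29. The density over that span was 9.46-fold higher in MEF (3.32 to 37.0). The single MESC body read was not above the intergenic background, whereas the MEF density was 36.8 times that background. The promoter window alone held 3 and 11 reads. Antisense reads over the same body numbered 193 in MESC and 108 in MEF, far more than the sense reads in both libraries. Phrf1 is transcribed toward Irf7 and overlaps its end, and it was measured at 710 and 431 body reads. Deaf1, the measured neighbour on the other side, had 633 and 347.

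**Figure D2:**
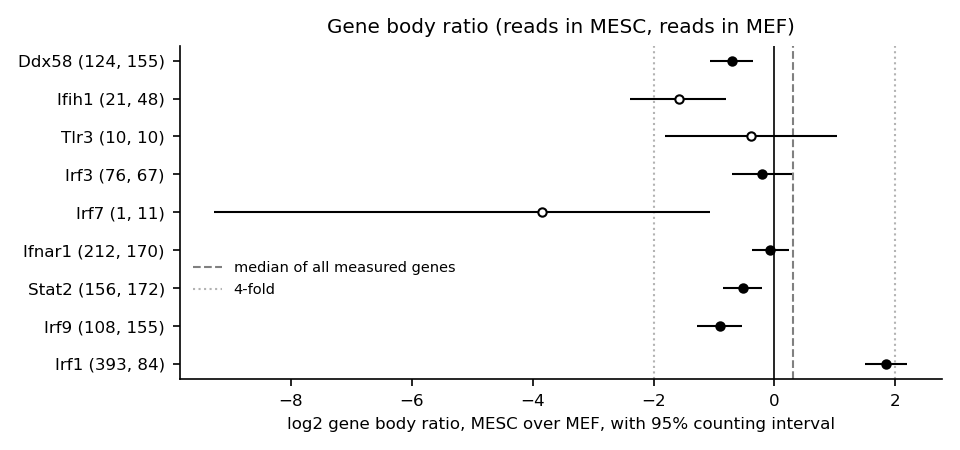
Log2 ratio of gene body density, MESC over MEF, for the 9 genes, with read counts in brackets and 95% counting intervals. Filled points passed the minimum of 50 reads, the dashed line is the median of all measured genes (0.30) and dotted lines are 4-fold. Irf1 lies at 1.84 and the other 5 measured genes lie between -0.90 and -0.06.

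Ifnar1, a subunit of the type I interferon receptor, lies on chromosome 16 from 91485483 to 91507686 (plus strand). It held 212 MESC and 170 MEF body reads, at 1.17 and 1.22 RPKM. The ratio was 0.956 (0.778 to 1.18), so by counting error alone a difference could reach 1.29-fold toward MEF or 1.18-fold toward MESC. Its 4 body parts each had an interval that included equal density. The stretch of 500 bp before the start was more active on the opposite strand than the gene's own promoter window. It held 83 antisense reads against 11 sense promoter reads in MESC, and 47 against 15 in MEF. The antisense share was 88.3% in MESC (80.0 to 94.0) and 75.8% in MEF (63.3 to 85.8), while the median over promoters with no other start within 2000 bp was 43.2% and 37.5%. A share of at least 75% was found at 22.0% of such promoters in MESC and 21.2% in MEF. No annotated start of another gene lay within that distance of Ifnar1. The 2 nearest measured genes also encode interferon receptor subunits. Ifnar2 held 140 and 221 reads and was 2.06-fold denser in MEF, and Ifngr2, of the interferon gamma receptor, held 75 and 120 and was 2.09-fold denser in MEF.

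Stat2, the STAT protein specific to type I and III interferon signalling, lies on chromosome 10 from 127707632 to 127729905 (plus strand). Its body held 156 MESC and 172 MEF reads, or 0.856 and 1.23 RPKM, 1.44-fold denser in MEF (1.15 to 1.80). In the first of the 4 parts the counts were 46 and 64, and in the third 47 and 31, where the interval included equal density. The promoter window held 8 and 15 reads. Sense reads between 5000 and 500 bp before the start numbered 18 in MESC and 1 in MEF. Timeless and Pan2, its measured neighbours on the same strand, went the other way and were 2.17-fold and 1.67-fold denser in MESC.

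Irf9, the DNA-binding partner of STAT2 in ISGF3, lies on chromosome 14 from 56222408 to 56228867 (plus strand). The body held 108 MESC reads and 155 MEF reads, at 2.31 and 4.32 RPKM, 1.87-fold denser in MEF (1.45 to 2.42). Almost no reads lay at the start of its longest transcript, with 3 in MESC and 1 in MEF. Reads instead gathered from 500 to 1500 bp downstream, with 208 in MESC and 182 in MEF. An annotated start lies within this stretch at 1006 bp, and its promoter window held 81 and 80 reads. The densities in that window could not be told apart, with a ratio of MESC to MEF of 0.776 (0.563 to 1.07). Beyond this start the body held 41 MESC and 77 MEF reads and was 2.45-fold denser in MEF (1.66 to 3.67). The pausing index at this start was therefore 25.1 in MESC (17.1 to 37.6) and 13.2 in MEF (9.55 to 18.3), 1.90-fold higher in MESC (1.13 to 3.20). The start was chosen from these reads, so the height of its window is a description. Reads also gathered before that window, with 5 MESC reads at 625 bp and 5 at 777 bp. Inside it, 11 MESC and 5 MEF reads began at 986 bp. From 500 to 1500 bp, the reads lay at 119 distinct positions in MESC and 124 in MEF. The pausing index at this start was not computed with each position counted once. Sense reads between 5000 and 500 bp before the start of the longest transcript numbered 51 in MESC and 28 in MEF. Their density was 11.3 and 6.22 reads per kb, against 9.21 and 17.3 in the body beyond the start at 1006 bp. Any part of upstream transcription in the Irf9 reads was not tested. Pck2, the nearest measured gene on one side, was 4.47-fold denser in MEF, with 72 and 247 reads. Nedd8 on the other side was 1.38-fold denser in MESC.

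Irf1, a factor induced by interferon gamma that also restrains growth, lies on chromosome 11 from 53583553 to 53591876 (plus strand). The body of 7324 bp held 393 MESC reads and 84 MEF reads, or 6.26 and 1.75 RPKM. It stood at the 98.8th percentile of all countable genes in MESC and at the 89.5th in MEF. A ratio at least as high toward MESC was found in 8.8% of measured genes. The promoter window, by contrast, held 47 MESC and 41 MEF reads, a ratio of 0.879 (0.566 to 1.37). At the starts of the longest transcripts, Irf1 alone among the 9 reached the promoter minimum of 20 reads, and it was not among the 9.11% of 4345 promoters that differed 4-fold. Of these, 19 of the 47 MESC reads and 13 of the 41 MEF reads began at 2 positions, the start of the longest transcript and an annotated start 3 bp before it. Reads stacked at a position cannot be told apart from PCR copies.

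The pausing index sets the promoter of Irf1 against its body. The index was 2.50 in MESC (1.81 to 3.39) and 10.2 in MEF (6.85 to 15.0), 4.07-fold higher in MEF (2.44 to 6.77). Medians over all genes with enough reads were 10.5 in MESC and 13.7 in MEF, so the interval of Irf1 lay below the median in MESC and included it in MEF. With each position counted once the promoter reads fell to 20 and 19 and the index to 1.37 in MESC and 5.45 in MEF, while its ratio between the libraries was 3.95. An index of at least 2 was found in 96.3% of genes in MESC and 96.9% in MEF. Of 2235 genes whose index could be compared, 13.3% had an index at least 2-fold higher in MEF and 0.671% at least 4-fold. Irf1, at 4.07, lay just above the 4-fold cut and fell below it with each position counted once. Its interval reached down to 2.44. Among 185 genes with a body ratio at least as high as that of Irf1 and a measured promoter, 2.16% had a promoter ratio at or below equal density. The body cut-off was set at Irf1 itself, which is therefore counted among them, and its promoter interval included equal density. The share is a description and adds nothing independent of the index ratio.

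**Figure D3:**
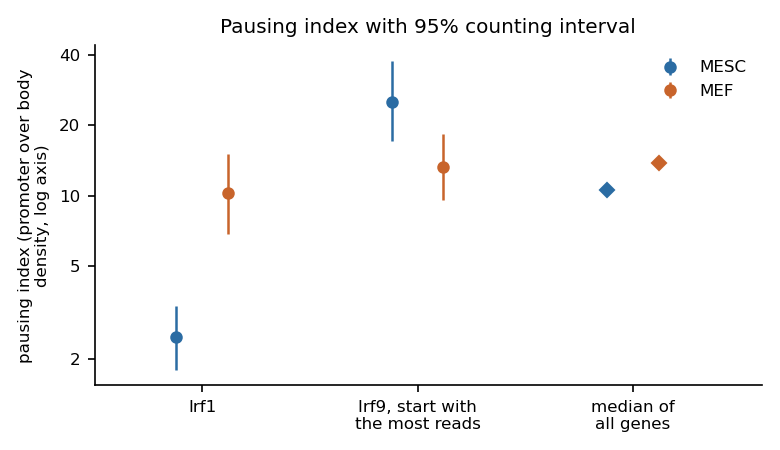
Pausing index (promoter window density over body density, log axis) of Irf1 at its longest transcript and of Irf9 at the annotated start with the most reads, with 95% counting intervals, and the median of all genes with enough reads in each library (diamonds). The index of Irf1 is 2.50 in MESC and 10.2 in MEF.

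The Irf1 reads were concentrated toward the 3′ end. The last of the 4 body parts held 226 of the MESC reads (57.5%) and 39 of the MEF reads (46.4%). Of its annotated transcripts, 2 end 7272 bp after the start, and only the longest, which the body follows, goes on to 8323 bp. From 8000 to 11000 bp after the start, which spans that end, 594 MESC reads and 137 MEF reads were counted, at 418 and 118 distinct positions. In the 5000 bp past the annotated end the density was 1.84 times that of the body in MESC and 2.58 times in MEF, against all-gene medians of 1.31 and 1.54. A density of at least 2 times the body was found in 23.0% of genes in MESC and 31.2% in MEF. Much of the MESC excess thus lay at and beyond the ends of the shorter transcripts. From 1000 to 7000 bp, before the ends at 7272 bp, 180 MESC and 48 MEF reads remained. The density there was 2.87-fold higher in MESC (2.08 to 4.04). This stretch and that from 8000 to 11000 bp were chosen after the reads were seen. Within introns alone, 83 and 29 reads gave a ratio of 2.19. The MESC reads of 35 and 36 bases gave 5.36 and 7.04 RPKM, both above the MEF value of 1.75. Rad50 and Slc22a5, the nearest measured genes, had ratios of 1.41 and 0.951.

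**Figure D4:**
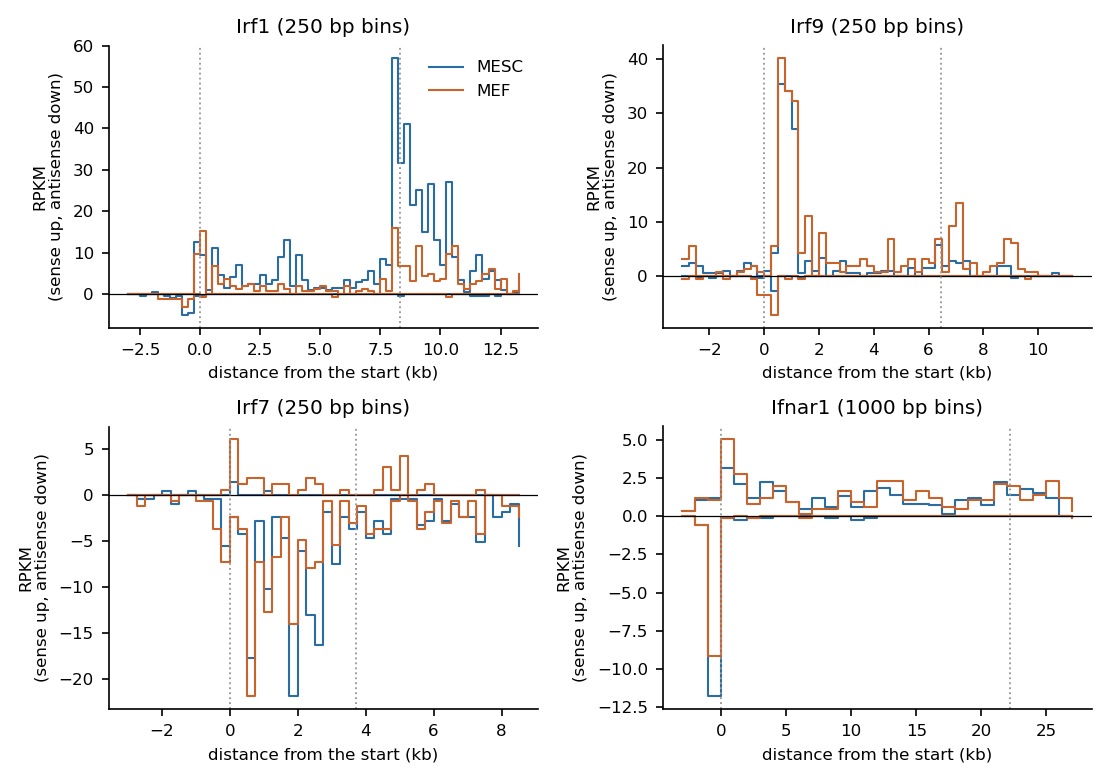
Read density along Irf1, Irf9, Irf7 and Ifnar1 against distance from the start of the longest transcript, with sense reads above the zero line and antisense reads below it, in MESC and MEF. Dotted lines mark the start and the annotated end. The Irf1 reads rise at about its end, the Irf9 reads gather after 500 bp, the Irf7 reads are mostly antisense, and the antisense peak of Ifnar1 lies before its start.

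Ordered by body density per length, MESC ran from Irf1 (6.26 RPKM) through Irf9, Irf3, Ifnar1, Stat2 and Ddx58 to Tlr3, Ifih1 and Irf7. Irf9 and Irf3 could not be separated there by their intervals, nor could the last 3 genes. In MEF the order was Irf9 (4.32 RPKM), Irf3, Irf1, Stat2, Ifnar1, Ddx58, Irf7, Ifih1 and Tlr3. The intervals of Irf3 and Irf1 overlapped, as did those of Irf1 and Stat2, of Stat2 and Ifnar1, of Ddx58 and Irf7, and of Ifih1 and Tlr3. Irf1 therefore led the set in MESC and came after Irf9 and Irf3 in MEF, and Irf7, last in MESC, overlapped Ddx58 in MEF. The place of Irf9 depends on reads near its annotated start 1006 bp downstream, which its body window includes. From 1500 bp to its end Irf9 had 9.88 reads per kb in MESC and 19.2 in MEF. The Irf3 body had 18.1 and 15.9 reads per kb, with a MEF interval of 12.4 to 20.3 that includes the Irf9 value. Ifnar1 had 10.0 reads per kb in MESC.

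The rest of the pathway was counted from lists of 128 genes, of which 60 passed the body minimum. Of these, 1 was called 4-fold higher in MESC (8.0% of all measured genes) and 7 in MEF (5.5%). The median log2 ratio of the 60 was -0.28 beside 0.30 for all genes, and 44 of 60 lay below the all-gene median. The interferon genes themselves had almost no reads: 19 ligand genes held 0 reads in MESC and 2 in MEF. Only 1 of the 19 could be counted as a gene body, because the others are shorter than 2000 bp. At such lengths few reads would be expected from background alone, so these counts cannot separate silence from background. How reads with multiple matches were handled is also not given. Of 5 measured receptor genes, Il28ra, a subunit of the interferon lambda receptor, was called in MESC, with 79 reads against 3 (20.2-fold, 6.66 to 100.0). The highest receptor count in a single library was the 221 MEF reads of Ifnar2.

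None of the 5 measured JAK-STAT genes was called, and their median log2 ratio was -0.90. Jak2, with the most reads among them, held 145 and 399 and was 3.59-fold denser in MEF (2.96 to 4.37). Among 4 measured interferon regulatory factors, Irf2, which competes with Irf1 for the same sites, was called in MEF with 185 and 733 reads, 5.17-fold (4.39 to 6.11). Irf1 and Irf2 therefore differed in opposite directions. Of 5 measured sensors, Ifi204 was called in MEF with 4 and 70 reads, and its count is uncertain because it belongs to a family of near-identical genes. Aim2 had the most sensor reads, 566 and 124, over a model of 115162 bp with 0 promoter reads in both libraries, so this count may not be its own. Among 11 measured adaptors and kinases, Ikbke, an IRF3 kinase, was called in MEF with 27 and 90 reads, and Traf3 had the most reads at 564 and 550.

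Of 13 measured negative regulators, Usp18, which blocks signalling at the receptor, was called in MEF with 4 and 63 body reads, 20.5-fold (7.64 to 77.7), while its promoter window held 19 and 43. Pias1 had the most reads of that list, 729 and 631. Of 52 listed interferon-stimulated genes only 19 were measured, and 4 were called in MEF: Usp18, Rtp4 with 3 and 50 reads, Xaf1 with 12 and 90, and Lgals3bp with 7 and 58. The other 15 stayed within 4-fold, with Pml, a nuclear body protein, the most read at 1559 and 339, 3.53-fold toward MESC (3.13 to 3.98). The median log2 ratio of the 19 was -0.07.

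**Figure D5:**
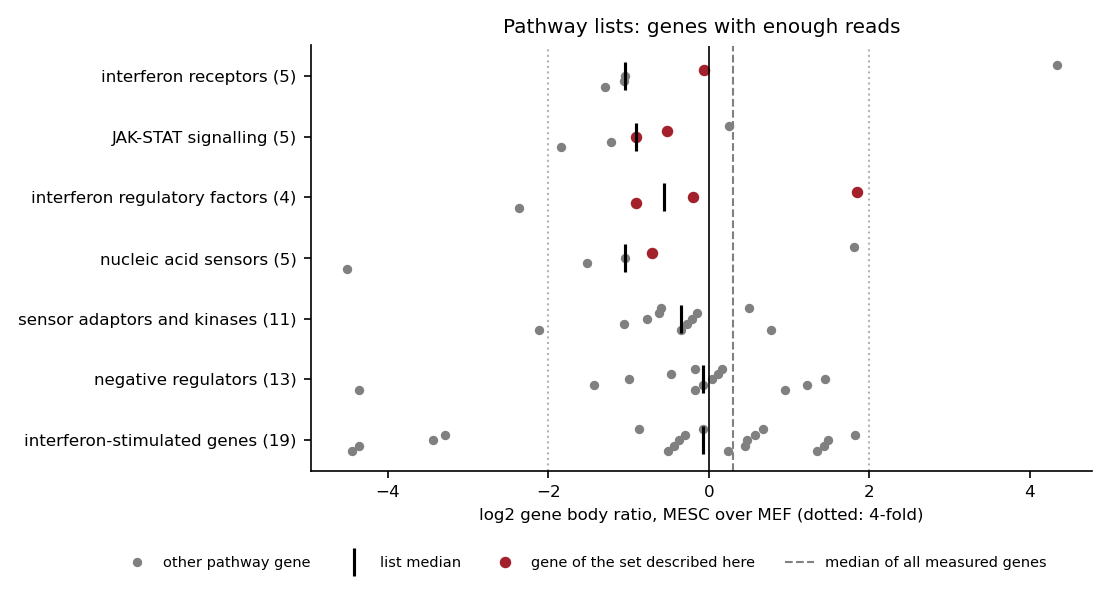
Log2 gene body ratio, MESC over MEF, of every pathway gene with at least 50 body reads in 1 library, by list, with the number measured in brackets. Black bars are list medians, the dashed line is the median of all measured genes and dotted lines are 4-fold. The 7 list medians lie between -1.04 and -0.07, all below the all-gene median of 0.30.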

How the data were processed

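Run-on reads of 3 MESC and 2 MEF samples were used. Each line of the deposited files is a read, with a raw count of 1 and no scaling by the authors. Per the file headers, libraries were pooled by cell type and repeats were not masked, and per the series' design text Eland and mm9 were used. How duplicates and multiple matches were handled is not given in the sources used here. Reads carry no sample name, so the edgeR test planned for separable samples was not made.

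Reads were counted by 5′ end and strand on the longest transcript of each gene in the GENCODE annotation of NCBIM37 (mm9); of 22885 models of at least 2000 bp, 2992 were dropped because a neighbour on their strand overlapped them. A sample of reads matched the genome at the listed position, with at most 2 mismatches, for 92.6% (MESC) and 95.6% (MEF). RPKM used all reads outside the mitochondrial genome. Calls needed a ratio of at least 4, with 50 body or 20 promoter reads in 1 library and a floor of 3 reads. Intervals are conditional Clopper-Pearson for ratios and exact Poisson for densities, and they treat PCR copies as separate molecules, since no molecular identifiers were used. Intergenic background, more than 10000 bp from genes, was 0.187 (MESC) and 0.110 (MEF) reads per kb of a strand. Counting was tested on simulated data. Alternatives covered scaling (edgeR 4.0.16 TMM, median ratio), duplicates, depth, read length, windows, minimum and fold. Python 3.11.15, scipy 1.17.1 and pysam 0.24.0 were used.

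The 9 genes, the lists and the tests were chosen with earlier results of these data known. Named genes are the 9, their nearest measured neighbours, and for each list the called genes and the gene with the most body reads; markers, and genes named for a limit, are named besides. All 128 listed symbols were placed, some by synonym in a RefSeq table. No per-sample columns were left unused.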

Additional observations from a re-analysis of the deposited data

How the results depend on the processing

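No paired analysis was possible because the reads carry no sample name, and for the same reason leaving out a replicate was not run. Of 467 alternative values, 425 stayed within set limits. The limits were the main interval, 1.5 times the main count or, for list medians, the SD over the list's genes. They are wide for genes with few reads and for lists with spread ratios, so the tally does not measure stability there. The Irf1 body stayed denser in MESC under all 12 alternatives computed for its ratio, from 2.19-fold to 4.24-fold, and moved to a log2 of 1.13 with introns only. It passed 4-fold with MESC reads of 36 bases or a body from 3000 bp (1 of the 9 genes called in MESC under each), and a fold of 2 also called 1. With no read minimum 1 gene, Irf7, was called in MEF, for the body and for the promoter window. Irf3 and Ifnar1 changed sign under 2 alternatives each. Irf9 stayed denser in MEF under its 12 alternatives, from 1.37-fold to 2.76-fold, but moved under 3 of them. With introns only, Irf9 held 20 MESC and 21 MEF reads. The Irf1 index ratio between MEF and MESC ran from 3.23 to 4.80, while the index itself ran from 0.913 to 4.47 in MESC and from 3.57 to 17.9 in MEF with the windows used and with each position counted once.

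Pathway genes called in MESC, 1 in the main count, were 0 with 35-base reads and with a minimum of 200, 2 with 36-base reads, a body from 3000 bp, no minimum and the start with the most reads, and 9 at a fold of 2. Pathway genes called in MEF, 7 in the main count, were 1 with a minimum of 200, 13 with none, 4 with introns only and 16 at a fold of 2. All genes called in MESC and MEF, 759 and 522, were 284 and 307 with a minimum of 200, 1308 and 837 with none, and 1968 and 1197 at a fold of 2; 35-base reads gave 459 in MESC. The split between directions moved to 619 and 664 under median-ratio scaling and 643 and 637 under TMM. The alternatives for the dense windows, the start with the most reads and the trimmed end were chosen after seeing the data. So were the stretches of Irf1 from 1000 to 7000 bp and from 8000 to 11000 bp. The same holds for those of Irf9 from 500 to 1500 bp and from 1500 bp to its end, and for the start-to-end count of Irf7. Depth limits Ifih1, Tlr3, Irf7 and the promoters other than those of Irf1 and, at its start with the most reads, Irf9.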
